A study of Mus musculus with 8 samples.

Results

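The core splicing factors examined here are the genes whose symbols begin with *Srsf*, *Hnrnp*, *Sf3* or *Snrp*, with symbols containing -ps left out. Membership rests on the symbol and on no measured value, and the members make up 53 of the 48321 symbols counted. The 53 fall into 11 *Srsf*, 20 *Hnrnp*, 9 *Sf3* and 13 *Snrp* genes. RNA was sequenced from peripheral CD8+ T cells, the cytotoxic lineage of T lymphocytes, taken from the spleen of C57BL/6 mice. The 4 groups of 2 libraries each are labelled WT or KO, before culture (day 0) or after 5 days in culture (day 5). The series describes the mice as *Satb1* F/F; *E8I-cre*, in which a Cre recombinase active in mature CD8 lineage cells acts on floxed alleles of *Satb1*, the gene of a nuclear protein that organises chromatin in T cells. The labels do not say whether the WT mice carried floxed alleles or the Cre, how old the mice were, what the culture held beyond the title's word stimulated, or whether replicates came from separate mice. P-values therefore measure the spread between these libraries, which may be technical.

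Splicing removes introns from primary transcripts and is carried out by the spliceosome, which is assembled from small nuclear ribonucleoprotein particles (snRNPs). Each of the U1, U2, U4 and U5 particles carries a ring of Sm proteins, encoded by *Snrpb*, *Snrpd1*, *Snrpd2*, *Snrpd3*, *Snrpe*, *Snrpf* and *Snrpg*, while U1 also holds the products of *Snrpa* and *Snrpc* and U2 those of *Snrpa1* and *Snrpb2*. The SF3A and SF3B complexes, encoded by the *Sf3* genes, are parts of the U2 particle that hold it at the branch point of the intron. SR proteins (*Srsf*) bind exons and mostly favour their inclusion, whereas heterogeneous nuclear ribonucleoproteins (hnRNPs) coat nascent transcripts and often oppose inclusion. In T cells this machinery is known for the switch of CD45 isoforms on activation, in which the product of *Hnrnpll* takes part.

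In WT cells, the changes called with culture included increases of *Snrp* genes (9 of 13 called higher, the processed pseudogene *Snrpert* among them, against 24.7% of all tested genes) and decreases of SF3 genes (5 of 9 called lower, against 23.6%), of *Srsf6* and of *Srsf12*. Of these WT *Snrp* and SF3 calls, those of *Snrpa1*, *Snrpd1*, *Snrpe*, *Snrpert*, *Sf3a2* and *Sf3b3* alone held under each alternative processing. With a correction for exon length and GC content, 5 *Snrp* genes were called higher in WT. In KO-labelled libraries 8 of the 13 *Snrp* genes, *Snrpert* again among them, were called higher (background 26.2%), while of the SF3 genes 2 were called lower (background 24%) and 2 higher. Increases of *Snrpd1*, *Snrpe*, *Snrpa1* and *Hnrnpa1* and decreases of *Srsf6* and *Srsf12* were found in both genotypes and under each alternative processing. Between KO-labelled libraries and WT, *Snrpa* alone was called, at day 0. Throughout, CPM stands for counts per 1000000 on a library size scaled with TMM factors (trimmed mean of M-values), and a gene was called when its FDR, the Benjamini-Hochberg adjusted p of the edgeR quasi-likelihood test over 12597 genes, was under 0.05. All 53 genes passed the filter on low counts. Total gene counts lay between 4170126 and 11117971 per library, so that 3 counts corresponded to between 0.257 and 0.723 CPM.

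Before the members are described, the labels were checked. *Satb1* stood at 97.8 and 91.6 CPM in WT and 144 and 125 CPM in KO at day 0, and at 96.5 and 116 CPM in WT and 56.5 and 62.3 CPM in KO at day 5. It was thus lower in KO at day 5 (log2 fold change -0.84, FDR 0.0162) but had higher values in KO at day 0 (0.51, FDR 0.125), so the gene-level count at day 0 goes against the label. Counts were per gene, so that excision at the floxed alleles was not analysed here, and the KO groups are named by their label (KO-labelled). The defining CD8 genes *Cd8a* (734 to 1455 CPM) and *Cd8b1* (1199 to 4057 CPM) were abundant in all 8 libraries. Among 12 marker genes of other cells, *Cd4*, *Ms4a1*, *Adgre1*, *Ncr1*, *Hbb-bs* and *Hba-a1* stayed below 1 CPM in each library. *Cd79a* (0 to 2.26 CPM), *Lyz2* (0 to 3.39 CPM), *Itgam* (0.482 to 5.20 CPM) and *Csf1r* (3.53 to 11.7 CPM) were low, and *Cd79b* was the highest, between 66.7 and 164 CPM. Of the 3 that passed the filter, 3 were called lower with culture in WT and 2 in KO-labelled libraries. The 12 markers summed to between 135 and 182 CPM at day 0 and between 72.3 and 90.9 CPM at day 5, and their part in the results was not tested.

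To show sequences at the starts of genes that moved, the 250 bases before the RefSeq start (GRCm38.p6) are given for 4 members, which were picked from the moved members after their motif matches had been seen and so say nothing of how common the motifs are. RefSeq windows were matched by symbol for 46 of the 53. *Snrpb2* (window chr2:143062819-143063068, plus strand) and *Snrpc* (chr17:27839837-27840086, plus strand) rose with culture. *Hnrnpa1* (chr15:103240147-103240396, plus strand) rose as well, and *Srsf6* (chr2:162931258-162931507, plus strand) fell. Capitals mark matches, on either strand, to the letters CCGGAAG of an ETS-type motif or to the CCAAT box, spelled as its name. RefSeq starts differ from those of the GENCODE models used for the positions of genes. The RefSeq start lies 30 bases inside the model for *Snrpb2* and 1937 bases inside it for *Snrpc*, whose window is thus within the gene, while for *Hnrnpa1* and *Srsf6* it lies 35 and 20 bases before the model. 
Snrpb2: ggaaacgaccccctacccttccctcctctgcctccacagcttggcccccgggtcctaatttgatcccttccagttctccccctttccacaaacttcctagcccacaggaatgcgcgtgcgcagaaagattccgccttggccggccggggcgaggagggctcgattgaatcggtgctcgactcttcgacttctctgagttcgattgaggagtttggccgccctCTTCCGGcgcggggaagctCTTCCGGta
Snrpc: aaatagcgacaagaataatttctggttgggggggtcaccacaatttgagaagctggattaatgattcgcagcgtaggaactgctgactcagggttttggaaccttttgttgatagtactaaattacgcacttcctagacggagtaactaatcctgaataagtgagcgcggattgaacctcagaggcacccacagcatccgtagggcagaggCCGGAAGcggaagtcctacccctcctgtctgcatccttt
Hnrnpa1: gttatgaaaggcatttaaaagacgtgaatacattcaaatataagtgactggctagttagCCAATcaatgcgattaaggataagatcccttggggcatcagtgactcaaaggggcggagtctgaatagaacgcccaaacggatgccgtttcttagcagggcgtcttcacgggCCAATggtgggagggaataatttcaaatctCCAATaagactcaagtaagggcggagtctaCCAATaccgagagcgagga
Srsf6: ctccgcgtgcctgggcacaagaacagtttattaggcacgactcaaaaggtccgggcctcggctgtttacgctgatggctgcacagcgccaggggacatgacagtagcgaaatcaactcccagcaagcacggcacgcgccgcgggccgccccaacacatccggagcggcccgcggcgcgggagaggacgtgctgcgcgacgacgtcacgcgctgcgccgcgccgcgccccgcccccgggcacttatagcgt
The windows of *Snrpb2* and *Snrpc* hold 2 and 1 matches to the ETS letters, that of *Hnrnpa1* holds 4 CCAAT boxes, and no searched letters were found in that of *Srsf6*.

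The search covered both strands, and an E-box was searched for as well, with the letters CACGTG. None of these 3 motifs contains another. The NRF1 motif was also searched for and was dropped after its counts had been seen, with a share among the members close to that among tested genes. The ETS letters were found in 15 of the 46 members with a window (32.6%), against 17.1% of the 8627 tested genes with a window and 6.91% of all 32851 windows. Among those 15 were *Sf3a1*, *Sf3a2*, *Sf3a3*, *Sf3b2*, *Sf3b3* and *Sf3b6*. The others were *Hnrnpd*, *Hnrnpf*, *Snrpb2*, *Snrpc*, *Snrpg*, *Srsf4*, *Srsf5*, *Srsf7* and *Srsf11*. Of all 15, 4 were called higher and 3 lower with culture in WT, out of 10 higher and 9 lower members with a window. The CCAAT box was found in 22 members (47.8%), against 40.6% of tested genes and 33.8% of windows. The E-box stood in 4 members, *Hnrnpa3*, *Hnrnpd*, *Hnrnpf* and *Snrpa* (8.7%), against 10.1% of tested genes and 6.02% of windows. None of the 10 higher and 9 lower members with a window in WT culture had the E-box, while *Hnrnpf* was called lower and *Snrpa* higher with culture in KO-labelled libraries. A match is a description of letters and not a bound site.

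The levels of the 53 genes spanned more than 3 orders of magnitude. At day 0 in WT the group means ran from 0.899 CPM for *Snrpf* to 2409 CPM for *Sf3b1*, with a median of 98.7 CPM over the members. Divided by exon length, the highest level in WT at day 0 was that of *Hnrnpk*, an hnRNP that binds cytosine-rich RNA, at 313 and 341 CPM per kilobase. It was followed by *Srsf7*, at 262 and 299 CPM per kilobase, by *Snrpb* (211 and 220) and *Sf3b1* (210 and 214), whose values overlap, and by *Snrpd3* (141 and 159). At day 5 in WT the leading means per kilobase were 351 for *Hnrnpk*, 300 for *Srsf7*, 225 for *Snrpb*, 168 for *Sf3b1* and 162 for *Snrpe*. The lowest means per kilobase in WT were 0.374 for *Hnrnpll* at day 0 and 0.571 for *Srsf12* at day 5. Apart from these shifts the order of levels per kilobase was alike, with a Spearman correlation across the 53 genes of 0.946 between WT day 0 and WT day 5, 0.953 between the same days in KO-labelled libraries, 0.988 between genotypes at day 0 and 0.993 at day 5. These correlations are descriptions across genes that share exon lengths and libraries.

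In all, the members took 1.40% ± 0.00141 (SD, n = 2) of the gene counts in WT and 1.41% ± 0.00424 in KO-labelled libraries at day 0, and 1.31% ± 0.0615 and 1.22% ± 0.00141 at day 5. Within that sum the make-up shifted. The *Snrp* genes held 12.7% and 11.9% of the members' counts in the WT day 0 libraries and 10.5% in each of the day 0 KO-labelled libraries, against 17.1% and 15.3% in WT and 16.2% and 15.6% in KO-labelled libraries at day 5. The summed share of the *Sf3* genes went the other way, from between 28.9% and 30.5% in the 4 day 0 libraries to 23.4% and 24.0% in WT and 26.6% and 27.8% in KO-labelled libraries at day 5. *Sf3b1* alone held between 56.7% and 62.9% of the *Sf3* counts. The other *Sf3* genes together held 10.7% and 11.5% of the members' counts in WT at day 0 and 9.78% and 9.85% at day 5, but 11.4% and 11.5% and then 11.5% and 11.8% in KO-labelled libraries, where the lower share thus lay in *Sf3b1*. Neither family's day 0 values overlapped its day 5 values in either genotype. The *Hnrnp* genes held between 38.8% and 41.5% and the *Srsf* genes between 16.8% and 20.3% across the 8 libraries. The days did not overlap for the *Hnrnp* share in WT (39.97% and 39.04%, then 41.49% and 41.28%) or for the *Srsf* share in KO-labelled libraries (19.1% and 20.3%, then 18.3% and 16.8%). Shares within a library do not depend on how libraries are scaled to each other.

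**Figure D1:**
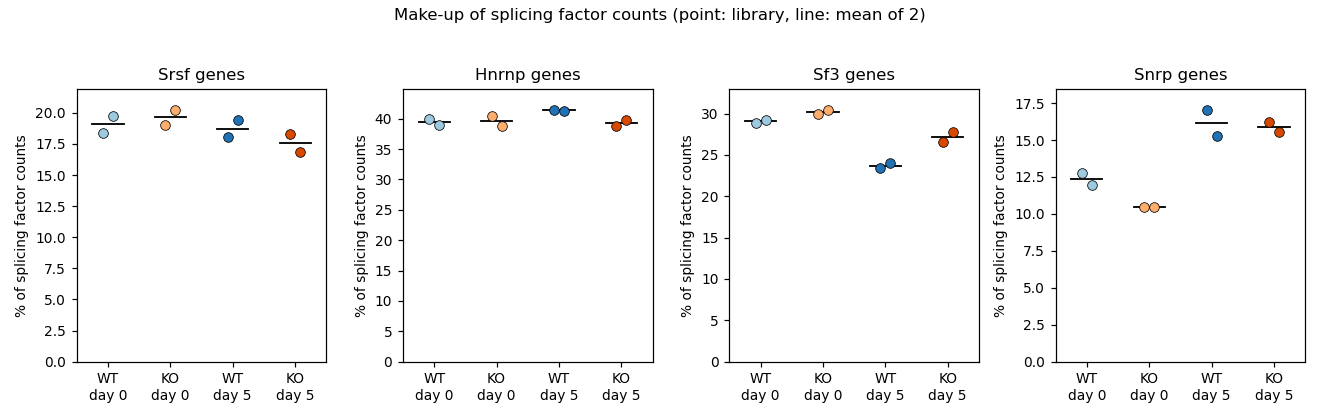
Share of the members' counts that fell on each gene family, in percent on axes from 0, by group; each point is a library and each line the mean of 2. The *Snrp* share lay between 10.5% and 12.7% at day 0 and between 15.3% and 17.1% at day 5, while the *Sf3* share was lower at day 5 in both genotypes.

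The comparison of day 5 with day 0 asked which splicing factors changed while the cells were cultured. In WT, 23 of the 53 members were called (43.4%), against 48.3% of all tested genes, so the members were not called more often than genes at large. Of the 23, 13 were higher and 10 lower, against 24.7% and 23.6% of all tested genes called in these directions. In KO-labelled libraries, 22 members were called, 13 higher and 9 lower, against 50.2% of all tested genes called, 26.2% higher and 24% lower. The median log2 fold change of the members was 0.10 in WT and 0.06 in KO-labelled libraries, and that of all tested genes -0.04 and -0.05. Scaling by library totals turned the medians of the members to -0.03 and -0.13 and the calls to 10 higher and 13 lower in WT, and to 10 and 16, respectively, in KO-labelled libraries. That scaling moved the median of all tested genes by -0.14 and -0.18, and relative to all genes the members' median was 0.14 in WT under both scalings and 0.10 in KO-labelled libraries under both. In WT, the day 0 and day 5 libraries did not overlap for 37 members (73.7% of all tested genes), and in KO-labelled libraries for 41 (77.9%). In these bulk samples, fewer cells of a type and less RNA per cell cannot be told apart. The summed level of 10 proliferation genes such as *Mki67* and *Top2a* rose from between 245 and 290 CPM at day 0 to between 5778 and 6179 CPM at day 5, with all 10 called higher in both genotypes, and its part in the changes below was not tested.

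Across genotypes, 10 members were called higher in both, *Hnrnpa1*, *Hnrnpc*, *Hnrnpll*, *Snrpa1*, *Snrpb2*, *Snrpc*, *Snrpd1*, *Snrpd2*, *Snrpe* and *Snrpert*, against 20.5% of all tested genes. Another 5 were called lower in both, *Sf3b1*, *Sf3b3*, *Snrpn*, *Srsf6* and *Srsf12*, against 17.3%. A further 8 were called in WT alone (10.3% of all tested genes) and 7 in KO-labelled libraries alone (12.3%), 23 in neither (39.5%), and no member was called in opposite directions. Calls in a single genotype are not shown to differ between genotypes, since no member passed the test of that difference (given with the genotype comparisons).

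**Figure D2:**
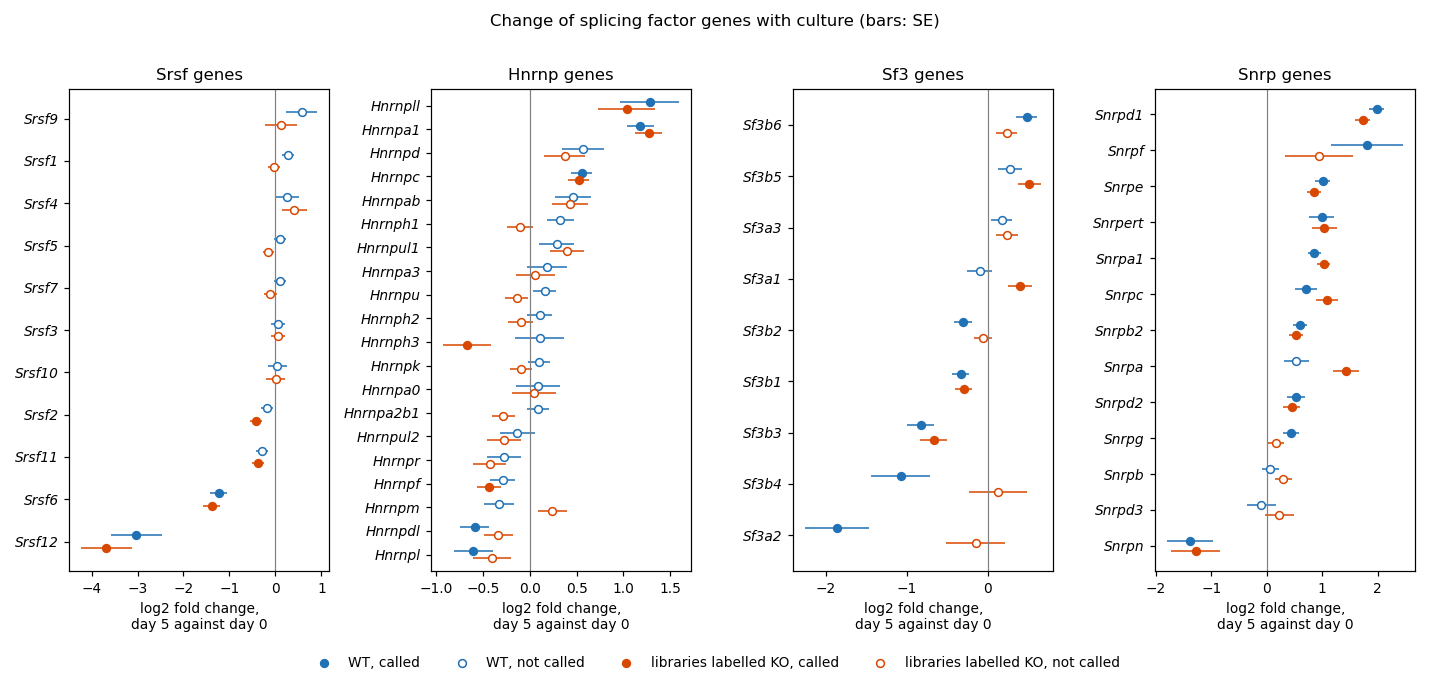
Log2 fold change of each member between day 5 and day 0, by family and sorted by the WT value, with WT in blue and KO-labelled libraries in orange; bars are the standard error, filled points were called at FDR under 0.05, and the panels have different horizontal ranges. Called increases lie mostly among the *Snrp* genes, and the largest decrease is that of *Srsf12*.

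Among the SR proteins, the level of *Srsf12* fell the most. *Srsf12* (chromosome 4, 33208991 to 33233340, plus strand, GRCm38), a minor SR protein, had 15.2 and 12.2 CPM in WT and 21.02 and 12.5 CPM in KO-labelled libraries at day 0. At day 5 it had 0.706 and 2.89 CPM in WT and 0.552 and 2.08 CPM in KO-labelled libraries. All 4 day 5 libraries were below all 4 day 0 libraries, and in each genotype the lower of the day 5 values stood near 3 counts. The log2 fold change was -3.02 (SE 0.55, FDR 0.000667) in WT and -3.68 (SE 0.55, FDR 0.000126) in KO-labelled libraries. Its size rested on single day 5 libraries, at -2.22 and -4.21 in WT without WT day 5 replicate 1 or 2 and at -3.00 and -4.88 without KO day 5 replicate 1 or 2, and each of these values was called.

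*Srsf6* (chromosome 2, 162931528 to 162937121), a splicing regulator whose upstream window is printed above, had 78.3 and 110 CPM in WT and 89.1 and 98.9 CPM in KO-labelled libraries at day 0, and 39.5 and 40.5 CPM and 37.5 and 34.3 CPM at day 5. The day 5 values were narrowly spread and lay below every day 0 value. It fell by 1.23 on the log2 scale in WT (SE 0.18, FDR 0.00012) and by 1.39 in KO-labelled libraries (SE 0.18, FDR 4.01e-05). No 50-base stretch of the longest transcript of *Srsf6* or *Srsf12* was shared with another gene.

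In KO-labelled libraries, *Srsf2* (-0.43, SE 0.13, FDR 0.0147) and *Srsf11* (-0.38, SE 0.12, FDR 0.0213) were also called lower, with WT values of -0.18 (FDR 0.286) and -0.29 (FDR 0.0745). *Srsf2*, which binds exonic enhancers, had 35.2% of its 50-base windows in common with other genes. The *Srsf2* call was lost without KO day 0 replicate 2 (FDR 0.151), KO day 5 replicate 1 (FDR 0.0903) or 2 (FDR 0.0887), and that of *Srsf11* without KO day 0 replicate 1 (FDR 0.0553) or 2 (FDR 0.0823) or KO day 5 replicate 1 (FDR 0.123) or 2 (FDR 0.133), with DESeq2 (FDR 0.0564) and without the filter on low counts (FDR 0.063). The 7 *Srsf* genes called in neither genotype included *Srsf1*, the founding SR protein, at 92.5 and 88.9 CPM in WT at day 0 and 110 and 109 CPM at day 5. Its log2 fold change of 0.27 in WT did not pass the threshold (FDR 0.116), nor did its value of -0.03 in KO-labelled libraries (FDR 0.859). *Srsf7*, the most abundant SR gene per kilobase, had log2 fold changes of 0.10 in WT and -0.11 in KO-labelled libraries (FDR 0.589 and 0.514). The sign of the *Srsf7* value in WT turned when scaled by library totals, and that of the *Srsf1* value in KO-labelled libraries with DESeq2 size factors.

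Among the hnRNP genes, the same 3 were called higher in both genotypes, and 2 were called lower in each (25% called, against 48.3% of all tested genes in WT and 50.2% in KO-labelled libraries). *Hnrnpa1* (chromosome 15, 103240432 to 103246692, plus strand), a repressor of exon inclusion and a shuttling protein, had 63.1 and 56.3 CPM in WT and 51.4 and 60.0 CPM in KO-labelled libraries at day 0. At day 5 it had 141 and 131 CPM in WT and 126 and 142 CPM in KO-labelled libraries, and no day 5 library overlapped a day 0 library. The log2 fold change was 1.18 (SE 0.15, FDR 3.03e-05) in WT and 1.27 (SE 0.14, FDR 1.34e-05) in KO-labelled libraries. Of its 50-base exon windows 28.3% also occur in other genes, 18 of these being pseudogenes, so its level may be an undercount.

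*Hnrnpll* (chromosome 17, 80029487 to 80062334, minus strand), which represses variable exons of the CD45 gene, was among the rarest members per kilobase. Its values were 3.76 and 4.97 CPM in WT and 4.12 and 3.85 CPM in KO-labelled libraries at day 0, and 10.9 and 10.1 CPM and 7.73 and 8.71 CPM at day 5. Each day 5 library was above each day 0 library, with log2 fold changes of 1.28 (SE 0.32, FDR 0.00527) in WT and 1.03 (SE 0.31, FDR 0.0142) in KO-labelled libraries, where the call was lost in 4 of 18 alternatives, with DESeq2 (FDR 0.0658), at equal depth (FDR 0.0937), without the filter on low counts (FDR 0.0559) and without KO day 5 replicate 2 (FDR 0.0888). *Hnrnpc*, which binds uridine tracts of nascent transcripts, went from 456 and 461 CPM to 671 and 675 CPM in WT and from 406 and 441 CPM to 634 and 582 CPM in KO-labelled libraries. Its log2 fold changes were 0.55 (SE 0.11, FDR 0.00124) and 0.52 (SE 0.11, FDR 0.00173), and the WT call was lost with a correction for exon length and GC content (0.23, FDR 0.11).

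In WT the hnRNP genes called lower were *Hnrnpl* and *Hnrnpdl*. *Hnrnpl*, a paralogue of *Hnrnpll* that also binds exons of the CD45 gene, went from 26.6 and 26 CPM to 15.3 and 19.5 CPM in WT (log2 fold change -0.60, SE 0.21, FDR 0.0285) and from 26.1 and 22.9 CPM to 18.6 and 18.6 CPM in KO-labelled libraries (-0.41, FDR 0.107), where it was called by library totals (FDR 0.0313) and with the correction (FDR 0.0376). The day 5 values of *Hnrnpl* thus lay below the day 0 values in both genotypes, while those of *Hnrnpll* lay above them. The WT call of *Hnrnpl* was lost in 10 of 18 alternatives, among them DESeq2 (FDR 0.128), and with the highest FDR (0.205) without WT day 5 replicate 1. *Hnrnpdl*, a paralogue of *Hnrnpd*, went from 136 and 159 CPM to 86.1 and 110 CPM in WT (-0.59, SE 0.15, FDR 0.00707), a call lost without WT day 0 replicate 2 (FDR 0.0818) or WT day 5 replicate 1 (FDR 0.0785). In KO-labelled libraries it went from 109 and 96.0 CPM to 80.0 and 82.4 CPM (-0.34, FDR 0.0861), and it was called by library totals (FDR 0.018), with the correction (FDR 0.0147) and with the 4 libraries alone (FDR 0.0468). In KO-labelled libraries, *Hnrnph3* (-0.67, SE 0.26, FDR 0.0446) and *Hnrnpf* (-0.44, SE 0.13, FDR 0.013) were called lower, with WT values of 0.10 (FDR 0.77) and -0.29 (FDR 0.0831). *Hnrnpf* shares 67.3% of its windows with other genes, and its count is uncertain to that extent. The *Hnrnpf* call was lost without KO day 0 replicate 1 (FDR 0.0995) or KO day 5 replicate 1 (FDR 0.0942) or 2 (FDR 0.0862), and that of *Hnrnph3* in 8 of 18 alternatives, DESeq2 among them (FDR 0.0862), with the highest FDR (0.403) without KO day 0 replicate 2. The abundant *Hnrnpk* was not called (0.10, FDR 0.511 in WT and -0.10, FDR 0.524 in KO-labelled libraries), although it was called higher in WT without WT day 5 replicate 2 (0.29, FDR 0.0306) and lower in KO-labelled libraries by library totals (-0.28, FDR 0.029), and 13 hnRNP genes in all were called in neither genotype.

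Of the 9 SF3 genes, which encode subunits of the U2 particle, 5 were called lower and 1 higher in WT, against 23.6% and 24.7% of all tested genes, and 2 lower and 2 higher in KO-labelled libraries, against 24% and 26.2%. *Sf3b1* (chromosome 1, 54985169 to 55027481, minus strand), the large scaffold of the SF3B complex and the member with the most counts at day 0, had 2432 and 2385 CPM in WT and 2483 and 2515 CPM in KO-labelled libraries at day 0. At day 5 it had 2009 and 1808 CPM and 1977 and 2087 CPM. The day 5 libraries were below the day 0 libraries, by a modest margin, with log2 fold changes of -0.34 (SE 0.10, FDR 0.0157) and -0.30 (SE 0.10, FDR 0.0268). The WT call was lost without WT day 0 replicate 1 (FDR 0.0907) or 2 (FDR 0.0655) or WT day 5 replicate 2 (FDR 0.0625), and with the 4 WT libraries alone (FDR 0.0801). That in KO-labelled libraries was lost without KO day 0 replicate 1 (FDR 0.11) or 2 (FDR 0.0812), without KO day 5 replicate 1 (FDR 0.18) or 2 (FDR 0.0777), with DESeq2 (FDR 0.0541), at equal depth (FDR 0.0501), and with the correction for exon length and GC content (-0.10, FDR 0.444). No exon window of *Sf3b1* was shared with another gene.

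*Sf3b3* (chromosome 8, 110810239 to 110846787), another large SF3B subunit, went from 312 and 394 CPM to 228 and 168 CPM in WT and from 394 and 355 CPM to 251 and 219 CPM in KO-labelled libraries. The groups did not overlap in either genotype, and the log2 fold changes were -0.83 (SE 0.17, FDR 0.00122) and -0.67 (SE 0.16, FDR 0.00446), the latter with FDR 0.0572 without KO day 5 replicate 2. *Sf3b2* was called lower in WT (-0.31, SE 0.11, FDR 0.0371), a call lost in 14 of 18 alternatives, which include leaving out any of the 8 libraries (FDR between 0.061 and 0.211) and DESeq2 (FDR 0.0745), and its value in KO-labelled libraries was -0.060 (FDR 0.676).

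*Sf3a2*, a subunit of SF3A, had 8.23 and 14.9 CPM at day 0 and 3.35 and 2.89 CPM at day 5 in WT, a log2 fold change of -1.86 (SE 0.40, FDR 0.00191). In KO-labelled libraries it had 7.21 and 4.96 CPM at day 0 and 5.33 and 5.87 CPM at day 5 (-0.15, FDR 0.76), where the day 5 values lay between those of day 0. *Sf3b4* followed a like course, from 20.2 and 28.5 CPM to 9.70 and 13.5 CPM in WT (-1.08, SE 0.36, FDR 0.0272) and from 17.7 and 7.16 CPM to 13.4 and 14.8 CPM in KO-labelled libraries (0.13, FDR 0.787). Of the windows of *Sf3b4* 51.2% are shared, and its day 0 KO-labelled libraries stood far apart. Without KO day 0 replicate 1 its change in KO-labelled libraries was 0.99 (FDR 0.038). Its WT call was lost without WT day 0 replicate 2 (FDR 0.184) or WT day 5 replicate 1 (FDR 0.193).

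The small subunit gene *Sf3b6*, whose product contacts the branch point, went from 186 and 172 CPM to 274 and 226 CPM in WT (0.48, SE 0.13, FDR 0.00863) and from 185 and 173 CPM to 207 and 215 CPM in KO-labelled libraries (0.24, FDR 0.147, but 0.0466 at equal depth). The WT value was lost with the correction for exon length and GC content (FDR 0.805) and without WT day 0 replicate 2 (FDR 0.078) or WT day 5 replicate 1 (FDR 0.0507). In KO-labelled libraries the called increases were those of *Sf3a1* (0.40, SE 0.15, FDR 0.0441) and *Sf3b5* (0.52, SE 0.15, FDR 0.0112), with WT values of -0.10 (FDR 0.618) and 0.28 (FDR 0.14). The *Sf3b5* call was lost without KO day 0 replicate 1 (FDR 0.107) or KO day 5 replicate 2 (FDR 0.0625), by library totals (FDR 0.0613) and with the correction (FDR 0.121), and that of *Sf3a1* in 8 of 18 alternatives, with the highest FDR (0.371) without KO day 5 replicate 2. *Sf3a3* was called in neither genotype.

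Of the 13 *Snrp* genes, 9 were called higher and 1 lower with culture in WT, and 8 and 1, respectively, in KO-labelled libraries, against 24.7% and 23.6% of all tested genes in WT and 26.2% and 24% in KO-labelled libraries. By library totals 6 were called higher in WT and 7 in KO-labelled libraries, and with the correction for exon length and GC content 5 and 7. Their median log2 fold change was 0.60 in WT and 0.85 in KO-labelled libraries. Scaling by library totals gave 0.46 and 0.67 and the correction gave 0.35 and 0.48, and relative to the median of all tested genes the family stood at 0.64 and 0.90 with TMM factors, and at 0.53 and 0.68 with the correction. The *Snrp* genes had the shortest exon models, with a median of 2159 bases against 3841 over all members.

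Of the 7 Sm genes, *Snrpd1* rose the most. It had 52.4 and 50.0 CPM in WT and 50.0 and 51.0 CPM in KO-labelled libraries at day 0, and 216 and 189 CPM and 167 and 168 CPM at day 5. The 4 day 0 values were nearly equal and each day 5 value was more than 3 times as large. The log2 fold change was 1.99 (SE 0.14, FDR 1.37e-07) in WT and 1.73 (SE 0.13, FDR 3.51e-07) in KO-labelled libraries.

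*Snrpe* (chromosome 1, 133603871 to 133610291, minus strand) went from 120 and 100.6 CPM to 231 and 214 CPM in WT and from 100.9 and 95.8 CPM to 181 and 174 CPM in KO-labelled libraries. The day 5 libraries were all above the day 0 libraries, with log2 fold changes of 1.01 (SE 0.13, FDR 4.81e-05) and 0.85 (SE 0.13, FDR 0.000173). The correction lowered the WT value to 0.40, which was still called (FDR 0.0176). Of its windows 20.8% are shared, with 2 pseudogenes. *Snrpert*, which the annotation lists as a processed pseudogene and which shares 55.6% of its windows, rose by 0.99 (SE 0.23, FDR 0.00347) in WT and 1.04 (SE 0.23, FDR 0.00229) in KO-labelled libraries, and its counts are uncertain to that extent. *Snrpd2* was called higher in both genotypes (0.52, FDR 0.0174, and 0.45, FDR 0.0336), but these calls were lost in 5 and 9 of 18 alternatives. The correction gave FDR 0.167 and 0.862, and leaving out a library raised it to as much as 0.14 in WT (without WT day 5 replicate 1) and 0.153 in KO-labelled libraries (without KO day 0 replicate 1).

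The other Sm genes gave less. *Snrpg* was called higher in WT (0.44, SE 0.15, FDR 0.0282) and stood at 0.17 in KO-labelled libraries (FDR 0.347), but the correction for exon length and GC content turned the value to -0.09, and the call was lost in 6 other alternatives, with the highest FDR without the filter on low counts (0.172) and without WT day 0 replicate 2 (0.146). *Snrpf* was called higher in WT from counts near the floor, 0.894 and 0.905 CPM at day 0 and 2.65 and 3.86 CPM at day 5 (FDR 0.0363), and the call was lost in 8 of 17 alternatives, among them DESeq2 (FDR 0.126) and, with the highest FDR (0.173), leaving out WT day 5 replicate 2. Exons of the other strand cover 85.4% of its exon length, and with an unstated strand setting its low level cannot be read as low expression. *Snrpb*, which encodes the SmB proteins, was not called, with 418 and 436 CPM at day 0 and 507 and 383 CPM at day 5 in WT (0.06, FDR 0.77) and a log2 fold change of 0.30 (FDR 0.124) in KO-labelled libraries, which was 0.52 and called (FDR 0.035) without KO day 0 replicate 1. *Snrpd3* was not called either, and its WT day 5 libraries stood apart, at 662 and 302 CPM, after 547 and 485 CPM at day 0. Without WT day 5 replicate 1 its value in WT was -0.75 (FDR 0.00587).

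*Snrpn* (chromosome 7, 59982495 to 60140219, minus strand), an imprinted gene that encodes a tissue-restricted relative of SmB, was the only *Snrp* gene called lower. It went from 11.4 and 13.1 CPM to 3.35 and 6.26 CPM in WT (-1.38, SE 0.42, FDR 0.0162) and from 4.97 and 9.18 CPM to 2.02 and 3.60 CPM in KO-labelled libraries (-1.28, SE 0.45, FDR 0.0299). Of its exon length 27.3% lies in exons of another gene on the same strand, and the calls were lost without WT day 0 replicate 2 (FDR 0.0781), WT day 5 replicate 1 (FDR 0.152), KO day 0 replicate 2 (FDR 0.173) or KO day 5 replicate 1 (FDR 0.208), and in KO-labelled libraries with DESeq2 (FDR 0.0668).

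The 2 *Snrp* genes specific to U2 both rose. *Snrpa1* (chromosome 7, 66059003 to 66074587, plus strand) had 217 and 215 CPM in WT and 193 and 171 CPM in KO-labelled libraries at day 0, and 396 and 388 CPM and 376 and 369 CPM at day 5. No library of one day overlapped the other, and the log2 fold changes were 0.86 (SE 0.12, FDR 6.11e-05) and 1.03 (SE 0.12, FDR 1.23e-05). Over 18 alternatives these values ran from 0.48 to 0.91 in WT and from 0.75 to 1.13 in KO-labelled libraries. Its partner *Snrpb2* rose by 0.60 (SE 0.13, FDR 0.00262) and 0.53 (SE 0.13, FDR 0.00548). The WT call of *Snrpb2* was lost with the correction (FDR 0.136) and the other without KO day 5 replicate 1 (FDR 0.0509).

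Of the genes specific to U1, *Snrpc* went from 37.9 and 33.7 CPM to 63.1 and 54.2 CPM in WT and from 29.2 and 20.2 CPM to 48.9 and 57.6 CPM in KO-labelled libraries, with log2 fold changes of 0.71 (SE 0.20, FDR 0.011) and 1.09 (SE 0.20, FDR 0.000657). The WT call was lost without WT day 0 replicate 2 (FDR 0.0817) or WT day 5 replicate 1 (FDR 0.0706). *Snrpa* was called in KO-labelled libraries (1.44, SE 0.23, FDR 0.000257) and not in WT (0.54, FDR 0.068). The WT value ran from 0.23 to 0.85 on leaving out a library and was called at equal depth (0.65, FDR 0.0294) and without WT day 5 replicate 1 (0.85, FDR 0.011), and its day 0 level is the subject of the genotype comparison. The difference between these changes, 0.90 (SE 0.32), did not pass the threshold (FDR 0.299).

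**Figure D3:**
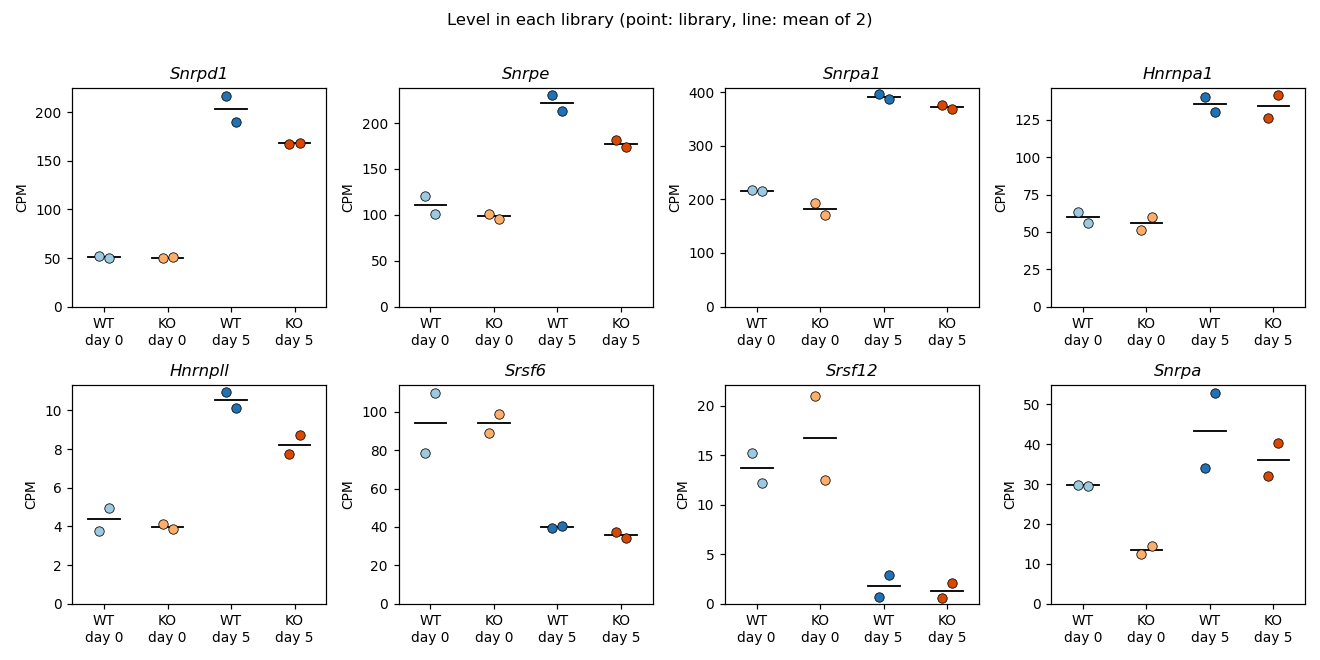
Level of 8 members in each library, in CPM on linear axes that start at 0 and differ between panels; points are libraries and lines the mean of 2. *Snrpd1* lay between 50.0 and 52.4 CPM in all 4 day 0 libraries, *Srsf6* and *Srsf12* were low in all 4 day 5 libraries, and *Snrpa* was low in the KO day 0 libraries alone.

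The comparison of KO-labelled libraries with WT asked whether the genotype altered splicing factor levels, and directions at day 0 rest on a label that the *Satb1* count goes against. At day 0, 1 of the 53 members was called (1.89%), against 1.8% of all tested genes, and it was lower (background 0.889%). No member was called higher by edgeR (background 0.913%) or by DESeq2, which called 281 genes in either direction, against 227 by edgeR. At an unadjusted p under 0.05 there were 6 members, all lower (13.8% of all tested genes in either direction), namely *Snrpa*, *Hnrnpm*, *Hnrnpdl*, *Sf3b4*, *Snrpc* and *Sf3a2*. The median log2 fold change of the members was -0.09, against -0.00172 over all tested genes.

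*Snrpa* (chromosome 7, 27187005 to 27196271, minus strand), which encodes an RNA-binding protein of U1, had 29.9 and 29.6 CPM in WT and 12.4 and 14.5 CPM in KO-labelled libraries at day 0. The replicates agreed closely and the groups did not overlap, and the level differed by -1.16 on the log2 scale (SE 0.24, FDR 0.0293). At day 5 it had 34.0 and 52.8 CPM in WT and 32.0 and 40.3 CPM in KO-labelled libraries, where the groups overlapped (-0.25, FDR 0.678). Over 18 alternatives the day 0 FDR ran from 0.00113 to 0.206, and the call was lost in 5, on thinning the libraries to equal depth and on leaving out WT day 0 replicate 1 (FDR 0.206) or 2 (FDR 0.181) or KO day 0 replicate 1 (FDR 0.129) or 2 (FDR 0.0682). Of its windows 17.1% are shared and 11.0% of its exon length lies in exons of the other strand.

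*Hnrnpm*, an hnRNP that binds GU-rich RNA, had 483 and 547 CPM in WT and 394 and 286 CPM in KO-labelled libraries at day 0. The groups did not overlap, and the log2 fold change of -0.60 (SE 0.16) missed the threshold in edgeR (FDR 0.0945) and passed it in DESeq2 (FDR 0.0226) and in edgeR without the filter on low counts (FDR 0.0158). It ran from -0.35 (without KO day 0 replicate 2) to -0.86 (without KO day 0 replicate 1, FDR 0.0287) on leaving out a library. At day 5 the groups were close, at 448 and 369 CPM in WT and 386 and 419 CPM in KO-labelled libraries.

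At day 5 no member was called by edgeR, against 1.63% of all tested genes. DESeq2 called 1, *Sf3b2*, higher in KO-labelled libraries, and it called 335 genes in all, against 205 by edgeR. Of the members, 5 had an unadjusted p under 0.05 in edgeR (14.1% of all tested genes), namely *Sf3b2*, *Sf3a1*, *Snrpe*, *Hnrnph1* and *Hnrnpu*. *Sf3b2*, an SF3B subunit, had 359 and 356 CPM in WT and 463 and 507 CPM in KO-labelled libraries, without overlap, and the log2 fold change was 0.44 (SE 0.11), with an FDR of 0.0746 in edgeR and 0.0118 in DESeq2. Over 18 alternatives the value ran from 0.22 to 0.50. *Sf3a1* had 82.9 and 85.5 CPM in WT and 105 and 132 CPM in KO-labelled libraries (0.50, SE 0.15, FDR 0.143). *Snrpe* had 231 and 214 CPM against 181 and 174 CPM (-0.32, SE 0.13, FDR 0.274). Over 18 alternatives the *Sf3a1* value ran from 0.32 to 0.65 and that of *Snrpe* from -0.38 to -0.13.

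The signs at day 5 leaned by family. Of the 53 log2 fold changes 43 were below 0 (81.1%, against 50% of all tested genes), with a median of -0.15 against 0 over all genes. All 11 *Srsf* genes, 18 of 20 *Hnrnp* genes and 12 of 13 *Snrp* genes were below 0, whereas 7 of 9 *Sf3* genes were above 0. Of the lists described below, 19 of 22 genes of the Lsm ring and assembly (median -0.17), 34 of 43 other RNA-binding regulators (median -0.16), 24 of 44 further spliceosome genes (median -0.066) and 4 of 11 SR protein kinases and related regulators (median 0.12) were below 0. At day 0, 12 of 13 *Snrp*, 6 of 9 *Sf3*, 6 of 11 *Srsf* and 11 of 20 *Hnrnp* genes were below 0. Together these were 35 of the 53 members (66%, against 50.2% of all tested genes). That share of members was 54.7% at equal depth and 86.8% with the correction for exon length and GC content. The members summed to 14790 and 12760 CPM in WT and 13120 and 13040 CPM in KO-labelled libraries at day 5, so that the groups' sums overlapped. The family pattern was noticed in these data, and none of the day 5 values was called by edgeR. The WT and KO libraries did not overlap for 20 members at day 0 and 25 at day 5, against 43.4% and 45.6% of all tested genes.

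**Figure D4:**
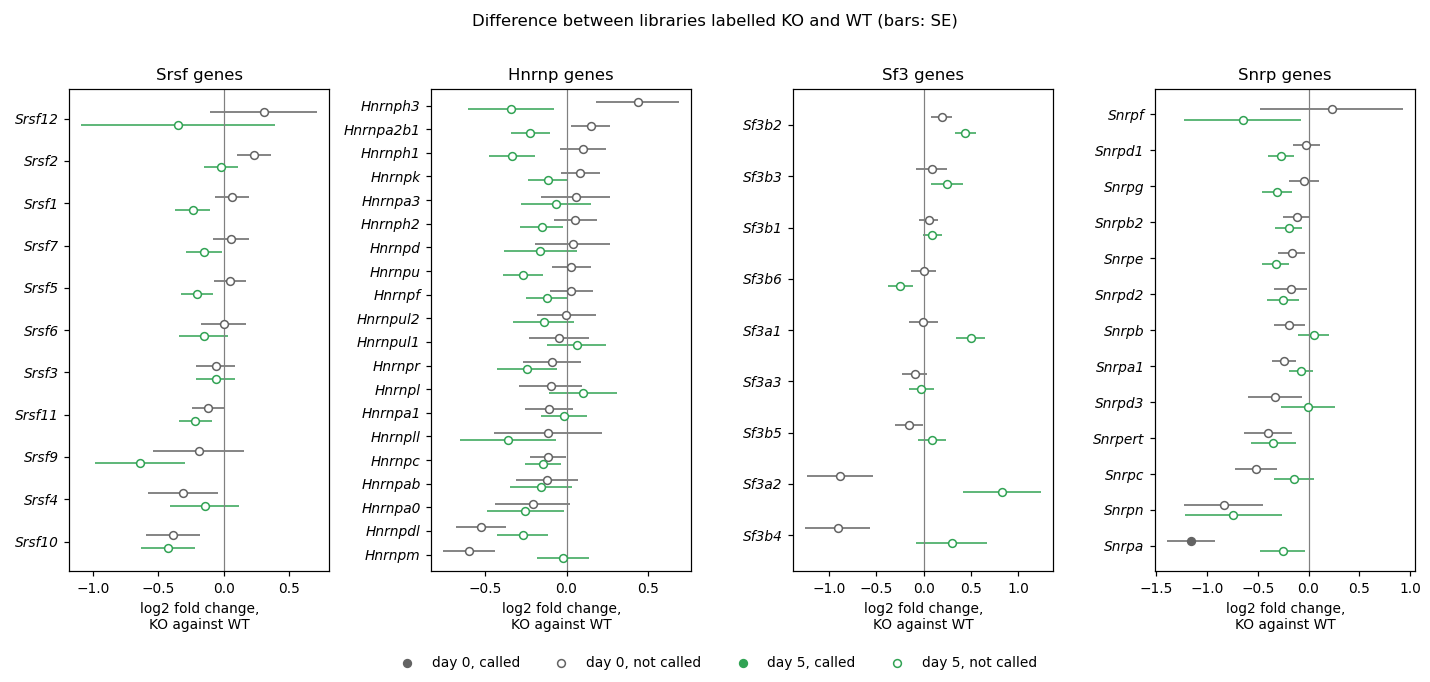
Log2 fold change of each member between KO-labelled libraries and WT, by family and sorted by the day 0 value, with day 0 in grey and day 5 in green; bars are the standard error and filled points were called at FDR under 0.05. *Snrpa* at day 0 is the filled point, and the day 5 values of the *Sf3* genes lie above 0 in 7 of 9 cases.

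The genotype by day interaction is the change with culture in KO-labelled libraries minus that in WT. Both it and the changes with culture in each genotype use the day 0 labels, which the *Satb1* count goes against. No member was called by edgeR, against 0.159% of all tested genes (20 genes), or by DESeq2, which called 139 genes. Of the members, 5 had an unadjusted p under 0.05 in edgeR (12.4% of all tested genes). These were *Sf3a2* (1.71, SE 0.54, FDR 0.238), *Sf3b4* (1.203, SE 0.51, FDR 0.359), *Snrpa* (0.90, SE 0.32, FDR 0.299), *Hnrnpm* (0.57, SE 0.22, FDR 0.332) and *Sf3a1* (0.50, SE 0.22, FDR 0.374). On leaving out a library the *Sf3b4* value ran from 0.70 (without KO day 0 replicate 2) to 2.05 (without KO day 0 replicate 1, FDR 0.0674), that of *Sf3a2* from 1.23 to 2.09, *Snrpa* from 0.62 to 1.21, *Hnrnpm* from 0.32 to 0.83 and *Sf3a1* from 0.33 to 0.66. Side by side, the changes of the 53 members with culture had the same sign in both genotypes in 40 cases, with a median absolute difference of 0.20 on the log2 scale.

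Other parts of the splicing pathway were read from 4 lists of 122 genes in all, of which 120 were tested. Of 44 further spliceosome genes, 16 were called with culture in WT, 7 higher and 9 lower (15.9% higher, below the 24.7% of all tested genes). The 2 largest called changes in each direction were increases of *Snrnp25* (1.67) and *Snrnp35* (1.51), both parts of the minor spliceosome, and decreases of *Puf60* (-0.93), which assists U2 recruitment, and *Crnkl1* (-0.78). Of 22 tested genes of the Lsm ring and of snRNP assembly, 11 were called, 9 higher (40.9%) and 2 lower. *Lsm2*, an Lsm ring subunit, went from 4.11 and 3.84 CPM to 17.5 and 16.6 CPM in WT (2.09, SE 0.31). *Snupn*, the import adaptor that carries assembled snRNPs into the nucleus, went from 52.2 and 47.5 CPM to 172 and 127 CPM (1.58, SE 0.17). *Gemin5*, the SMN complex subunit that binds snRNA, fell by 0.99 on the log2 scale and *Tgs1*, which modifies the snRNA cap, by 0.45. In KO-labelled libraries the same lists gave 7 higher and 10 lower of 44, and 8 higher and 2 lower of 22, against 26.2% higher and 24% lower of all tested genes.

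Of 11 kinases and related regulators of SR proteins, 6 were called in each genotype, 1 higher and 5 lower (54.5%, against 48.3% of all tested genes in WT and 50.2% in KO-labelled libraries). *Clk1*, which phosphorylates SR proteins, had 663 and 649 CPM in WT at day 0 and 291 and 398 CPM at day 5 (-0.93, SE 0.14). *Clk4*, a close relative, had 461 and 458 CPM and then 221 and 264 CPM (-0.92, SE 0.12), and *Clk3* rose from 213 and 242 CPM to 401 and 406 CPM (0.83, SE 0.12). Of 43 tested genes of other RNA-binding splicing regulators, 21 were called in WT (48.8%, near the 48.3% of all tested genes), 12 higher and 9 lower, and 18 in KO-labelled libraries (41.9%, against 50.2%), 6 higher and 12 lower. The 2 largest in each direction in WT were *Pspc1* (1.35), *Rbm17* (1.11), *Rbm10* (-0.995) and *Acin1* (-0.99). Between genotypes, *Clns1a*, an assembly factor that chaperones Sm proteins, was called lower at day 0 (-0.63, SE 0.13, FDR 0.0312). It was the only gene of the 120 called on either day. The share called was thus 0.833% at day 0 and 0% at day 5, below the 1.8% and 1.63% of all tested genes.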

How the data were processed

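RNA from 8 libraries of CD8+ T cells, 2 in each of 4 groups taken from the sample labels, was sequenced in 50-base reads, per the labels. The files deposited by the authors hold raw counts of reads by gene symbol, a file per library, neither normalized nor pooled. The submitters' processing notes name HISAT2 2.1.0, HTSeq 0.11.1, mm10 and GRCm38. The annotation and the strand setting are not given in the sources used here. Records assigned to genes were between 21.2% and 24.5% of each table, and the summary lines, such as no feature (30.4% to 33.6% at day 0, 27.5% to 29.1% at day 5) and not unique (31.8% to 34.5%, then 35.7% to 37.4%), were left out of library sizes and tests. Reads with several alignments were set aside, so genes with near-identical copies may be undercounted. Both shares differed between the days without overlap, and their part in the results was not tested.

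All 8 libraries entered an edgeR 4.0.16 quasi-likelihood fit (R 4.3.3) with a mean per group, TMM factors and the default low-count filter (minimum count 10), which left 12597 genes. P-values were two-sided, with Benjamini-Hochberg adjustment over all of them and a threshold of FDR 0.05. SEs come from the fit, whose common coefficient of variation was 15.0%. A group of 2 libraries gives an SD on 1 degree of freedom, and in the fit all groups share an estimate of the spread between libraries. Symbols were matched to GENCODE M21 (46394 of 48321) for positions and exon length. The share of 50-base exon windows found in another gene on either strand was taken over each gene's longest transcript. The edgeR fit was run on simulated counts with known changes between KO and WT at day 0 and the same dispersion for every gene. The other comparisons and DESeq2 were not simulated. Replicates differed by more than sampling noise (chi-square per degree of freedom 4.69 to 9.40) and were kept apart.

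The members and gene lists were chosen with earlier results of these data known. By rule, text names members called between genotypes, up to 3 increases and 3 decreases per family called with culture in WT (at least 10 CPM, no overlap), the 5 highest per kilobase in WT at each day, and *Hnrnpll*, *Snrpn*, *Snrpb* and *Srsf1*, with the leading genes of each list. Other named members are those counted in small groups and were chosen after their values were seen. Alternatives were other scalings, filters, tools (DESeq2 1.42.0), equal depth, a correction for exon length and GC content, a replicate block and leaving out each library. The level of 1 marker of other cells is not reported here by name.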

Additional observations from a re-analysis of the deposited data

How the results depend on the processing

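The counts of members called, and the called or named members' changes in the comparisons they are named for, were computed under 18 alternatives (17 for the interaction, 16 for *Sf3a2* in it, and 17 for *Snrpf*). Genes of the other lists, *Satb1* and the members' remaining values were computed in the main setting alone. Each changed 1 choice, although DESeq2 differs from edgeR in scaling, dispersion and test together. In KO-labelled libraries at day 0, the count of members called lower (1) became 2 without a filter on low counts and with DESeq2 (*Hnrnpm* joined *Snrpa*, with FDR 0.0158 and 0.0226), 0 at equal depth, and ran from 0 to 2 on leaving out a library (0 without WT day 0 replicate 1 or 2, 2 without KO day 0 replicate 1, where *Snrpa* was lost and *Hnrnpm* (FDR 0.0287) and *Sf3b4* (-1.76, FDR 0.0227) were called). At day 5 the count called higher (0) was 1 with DESeq2, which called 335 genes in all there, against 205 by edgeR. For culture in WT, the count called higher (13) was 7 with the correction for exon length and GC content, available for 96.9% of tested genes. It ran from 9 to 16 on leaving out a library, and the count called lower (10) from 4 (without WT day 0 replicate 2) to 9. For culture in KO-labelled libraries, the count called lower (9) was 16 when scaled by library totals and 5 with DESeq2, and ran from 3 (without KO day 5 replicate 1 or 2) to 10, with 5 without KO day 0 replicate 2, while the count called higher (13) ran from 9 to 14. The number of all genes called at day 0 was 434 without the filter and 38 and 49 without WT day 0 replicates 1 and 2, against 227. The cause of these shifts was not tested. Of the members called with culture, 6 higher and 4 lower in WT, and 8 and 2 in KO-labelled libraries were called in the same direction under each alternative run.

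The following values changed sign, and some were called at an end of their range. For culture in WT, *Hnrnpk* had -0.040 by library totals, -0.075 with the correction and -0.048 to 0.29 (FDR 0.0306) on leaving out a library. *Snrpb* had -0.080, -0.26 and -0.13 to 0.28 under these settings, *Srsf7* -0.043, -0.25 and -0.069 to 0.30. *Snrpg* had -0.090 with the correction, and *Snrpd3* ran from -0.75 to 0.39 on leaving out a library (-0.75, FDR 0.00587, without WT day 5 replicate 1). For KO-labelled culture, *Sf3b4* had -0.050 by totals, -0.33 with the correction and -0.33 to 0.99 (FDR 0.038) on leaving out a library. With the correction, *Sf3b6* had -0.028, *Snrpb* -0.12, *Snrpd3* -0.0074 and *Srsf1* 0.030. *Srsf1* had 0.0042 with DESeq2 size factors and 0.00882 with DESeq2. On leaving out a library, *Sf3a2* ran from -0.37 to 0.19, *Srsf1* from -0.11 to 0.063 and *Srsf7* from -0.22 to 0.0070. The correction moved the median of all tested genes by -0.14 in WT and -0.16 in KO-labelled libraries.

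The labels do not say that replicate numbers pair libraries. Across genes, the replicate differences of 2 groups correlated at 0.118 for the WT days and 0.229 for the KO days, and at 0.00438 and -0.0165 between genotypes on day 0 and day 5. With the replicate number as a block, members called were 0 higher and 1 lower at day 0, 0 and 0 at day 5, 13 higher and 10 lower with culture in WT, 13 and 9 in KO-labelled libraries, and 0 and 0 in the interaction, so the block moved none of these counts.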

Other observations

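The 3 symbols left out for the -ps in their names had few counts. *Hnrnpa1l2-ps* had counts of 16, 11, 6 and 19 in the day 0 libraries and 4, 1, 0 and 4 in the day 5 libraries. *Snrp1c-ps1* and *Snrp1c-ps2* had at most 1 count in any library.

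Of 30 members with under 10% of their 50-base windows shared, 5 were called higher and 7 lower with culture in WT, and 6 higher and 6 lower in KO-labelled libraries. All tested genes gave 24.7% higher and 23.6% lower in WT, and 26.2% and 24% in KO-labelled libraries. Of the 23 with 10% or more shared, 8 were called higher and 3 lower in WT, and 7 and 3 in KO-labelled libraries, and no test of this difference was run.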
